A study of Mus musculus with 4 samples.

Results

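Luminal Progenitor 1 cells of a mouse mammary tumor with activated protein kinase A (PKA) were the 2157 cells that the deposited cell table of the PKA tumor assigns to that class. They made up 81.8% of the 2638 annotated cells of the tumor (exact Clopper-Pearson 95% interval 80.2 to 83.2%, counting error only) and belong to 15445 annotated cells in 4 libraries. The other classes of the tumor held 238 EMT-like, 177 Mature Luminal and 66 Lumino-Basal cells. All 4 libraries came from MMTV-PyMT mice, in which the mouse mammary tumor virus promoter drives the polyoma middle T oncogene in mammary epithelium. The groups were PKA activated tumor, wild type tumor, PKA activated hyperplasia and wild type hyperplasia, with 1 library each. The labels give an age of 16 to 20 weeks for tumors and 8 to 9 weeks for hyperplastic glands, while the design text puts tumors at 22 weeks. They do not state how PKA was activated, how many animals went into a library or which gate was used in the cell sort before loading, so no targeted gene could be checked. The design text says that both tissues were taken within a mouse, without naming the libraries that share one. Glands were digested with trypsin and dispase after collagenase and hyaluronidase, and tumors with collagenase and hyaluronidase alone, so digestion and stage cannot be told apart.

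Luminal progenitors line the ducts and alveoli of the mammary gland, lack most hormone receptor expression and give rise to milk-secreting cells. They are known for Kit, a receptor tyrosine kinase, Elf5, a transcription factor of the alveolar lineage, and Cd14, a co-receptor for bacterial lipopolysaccharide. PKA is the kinase activated by cyclic AMP, and its regulatory subunits hold the catalytic subunits inactive until cyclic AMP binds them.

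Counts are unique molecular identifiers (UMIs), each standing for 1 captured RNA molecule. UMIs were summed over the cells of a class or cluster and scaled to a total of 1000000 (CPM). A gene was counted as higher or lower when its ratio of (CPM + 10) was at least 2-fold and it reached 50 CPM on the higher side. Folds printed beside genes are ratios of CPM without the added 10. With 1 library per group there is no replicate check, no test is given, and 95% intervals cover counting error only. The study's authors chose the classes with Cd14, Kit and Lalba for luminal progenitors among other genes, and clusters were formed from genes of the same cells, so differences between classes or clusters are descriptions.

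The Luminal Progenitor 1 cells had a median of 5970 UMIs and 2425 genes, and a median of 1.57% mitochondrial UMIs. The medians of Luminal Progenitor 1 cells were 4143 UMIs in WT tumor, 2588 in PKA hyperplasia and 2690 in WT hyperplasia. Of their barcodes, 13 also stood among annotated cells of WT tumor, 18 among those of PKA hyperplasia and 14 among those of WT hyperplasia. Luminal Progenitor 1 was the largest class in the PKA tumor, and its share was 45.2% in WT tumor, 75.6% in PKA hyperplasia and 71.5% in WT hyperplasia. Defining genes of other cell types were near 0: summed marker levels were 0.651 CPM for 8 T and NK cell genes (5 of them at 0), 0.0723 CPM for 4 B cell genes (3 at 0), 4.99 CPM for 7 fibroblast genes (3 at 0) and 36.1 CPM for 10 macrophage genes. S100a8, which encodes a calcium-binding protein abundant in neutrophils, stood at 324 CPM, but its partner gene S100a9 stood at 0.145 CPM.

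The 5 genes given as markers of the class were Npy, Lalba, Saa1, Ptx3 and Cd14, and they separated it from Mature Luminal cells but mostly not from EMT-like cells. Lalba encodes alpha-lactalbumin, a milk protein that takes part in lactose synthesis. It stood at 3526 CPM in Luminal Progenitor 1, against 6911 CPM in EMT-like, 133 CPM in Mature Luminal and 178 CPM in Lumino-Basal cells. Lalba was thus highest in EMT-like cells, although it is a luminal progenitor gene of the study. Cd14 stood at 1302 CPM in Luminal Progenitor 1, against 402 CPM in EMT-like, 126 CPM in Mature Luminal and 644 CPM in Lumino-Basal cells. Saa1, which encodes the acute phase protein serum amyloid A1, stood at 2813 CPM in Luminal Progenitor 1, against 1818, 468 and 766 CPM in EMT-like, Mature Luminal and Lumino-Basal cells. Cd14 and Saa1 were the given markers with their highest level in Luminal Progenitor 1. Ptx3, which encodes the soluble pattern recognition protein pentraxin 3, stood at 516 CPM in Luminal Progenitor 1, against 540, 30.0 and 134 CPM in the same 3 classes. Npy, which encodes neuropeptide Y, stood at 469 CPM in Luminal Progenitor 1, against 410, 52.4 and 569 CPM. All 5 were higher than in Mature Luminal cells, where 9.13% of the genes tested were higher and 12.1% lower. Against Lumino-Basal cells 4 of 5 were higher, with 6.24% of genes higher and 8.99% lower, and Npy was the exception. Against EMT-like cells Cd14 alone was higher, at a log2 ratio of 1.69 (1.56 to 1.83), with 4.32% of genes higher and 0.748% lower.

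**Figure D1:**
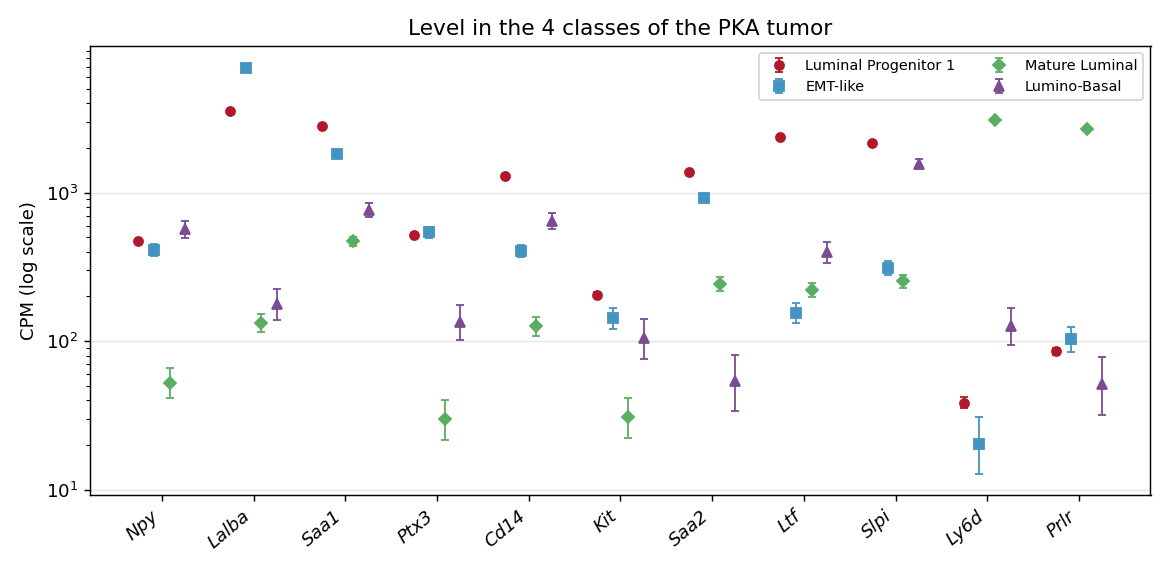
Level of 11 genes in the 4 classes of the PKA tumor, as CPM of UMIs summed over the cells of a class on a log axis, with 95% Poisson intervals (counting error only). The 5 given markers are on the left. Lalba is highest in EMT-like cells at 6911 CPM, whereas Ltf is highest in Luminal Progenitor 1 at 2359 CPM.

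Single cells were also compared with depth held equal. Each cell was thinned to 2000 UMIs, which left out 158 Luminal Progenitor 1 and 5 Mature Luminal cells. A UMI of Cd14 was then found in 71.2% of Luminal Progenitor 1 cells (69.2 to 73.2%), against 14.5% of Mature Luminal cells. Lalba was found in 62.3% of Luminal Progenitor 1 and 13.4% of Mature Luminal cells, and Ptx3 in 50.3% and 4.07%. Saa1 was found in 38.1% of Luminal Progenitor 1 and 9.88% of Mature Luminal cells, and Npy in 17.8% and 3.49%. Cd14 and Lalba were thus found in most cells of the class at this depth, and Npy in few. Without thinning the median depths were 5970 and 8362 UMIs, and the share of Luminal Progenitor 1 cells was 85.3% for Cd14, 72.5% for Lalba, 72.9% for Ptx3, 50.8% for Saa1 and 24.99% for Npy, against 28.8%, 33.9%, 11.9%, 21.5% and 8.47% of Mature Luminal cells. After thinning, at least 3 of the 5 markers were found together in 47.3% of Luminal Progenitor 1 cells, against 36.4% of EMT-like, 15.9% of Lumino-Basal and 2.33% of Mature Luminal cells. Cd14, Lalba, Ptx3, Saa1 and Npy were found in 42.9%, 75.6%, 52.5%, 29.0% and 17.1% of thinned EMT-like cells. In thinned Lumino-Basal cells the shares were 49.2%, 20.6%, 19.0%, 20.6% and 22.2% in the same order. By cells, too, Lalba, Ptx3 and Npy thus did not set the class apart from all other classes.

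How unevenly a gene was spread over the cells differed widely. Ptx3 and Cd14 were the most evenly spread of the 5: 262 cells held 50% of the Ptx3 UMIs and 266 cells 50% of the Cd14 UMIs. For Lalba the same share was held by 189 cells, for Saa1 by 69 cells and for Npy by 44 cells. A gene for a secreted protein of the secretoglobin family, Scgb1b27 (chr7:34021483-34022881, GRCm38, plus strand), stood at 154 CPM in Luminal Progenitor 1, against 4.10 CPM in the other classes together. That ratio was the largest of any named gene higher in the class, yet 36 of 2157 cells had a UMI of it. A single cell of cluster 1 held 1534 of its 2126 UMIs, and these were 9.50% of the 16146 UMIs of that cell. The same cell held 1245 UMIs of Scgb2b27, the neighbouring gene, and 408 UMIs of Car6, which encodes a secreted carbonic anhydrase. Without it Scgb1b27 stood at 42.8 CPM, and its log2 ratio against the other classes was 3.38 (2.57 to 4.35) in place of 5.23 (4.42 to 6.18).

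**Figure D2:**
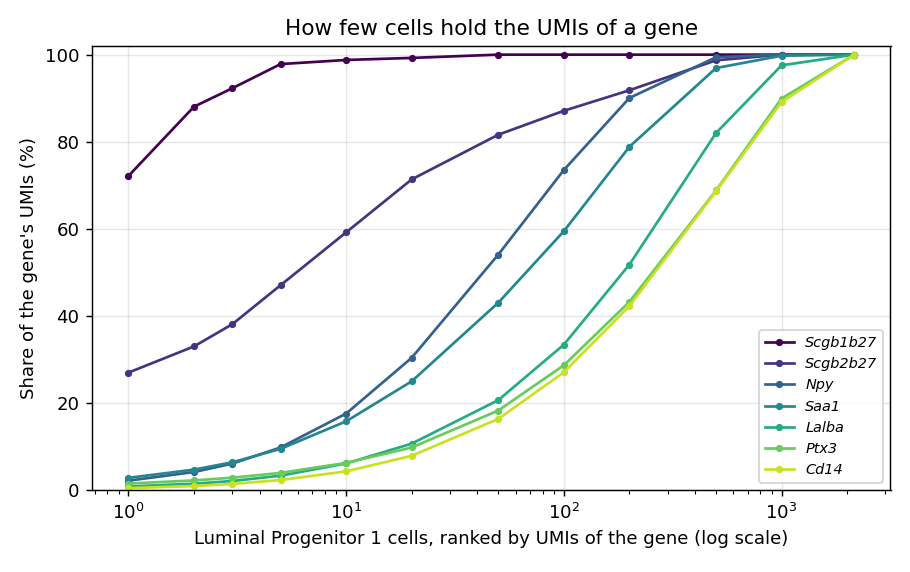
Cumulative share of a gene's UMIs (vertical axis, %) held by the Luminal Progenitor 1 cells of the PKA tumor with the most UMIs of that gene (horizontal axis, number of cells, log scale). The curve of Scgb1b27 starts at 72.2% for 1 cell, while 266 cells are needed for 50% of the Cd14 UMIs.

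Beyond the given markers, genes higher in Luminal Progenitor 1 cells included Ltf, Slpi and Cebpd. Against all other classes together 93 genes were higher and 195 lower among 3827 tested, or 2.43% and 5.1%. Ltf, which encodes the iron-binding milk protein lactoferrin, stood at 2359 CPM in Luminal Progenitor 1, against 221 CPM in the other classes (log2 ratio 3.42, 3.30 to 3.53). Slpi, which encodes an inhibitor of leukocyte proteases, stood at 2161 CPM, against 458 CPM. Cebpd, which encodes a transcription factor of acute phase responses, stood at 1321 CPM, against 331 CPM. The remaining named genes on this side were Spp1, Dusp6, Wfdc17, Ogfrl1, Ncoa7, Cxcl1 and Scgb2b27, with ratios of 3.54-fold to 4.41-fold. Without cluster 1, described below, the log2 ratio of (CPM + 10) of Cxcl1 against the other classes was -0.20 in place of 1.72. Of 21 acute phase and innate defence genes, 18 were measured, 7 were higher (Saa1, Saa2, Ptx3, Cp, Ltf, Slpi and Pglyrp1) and 3 lower (Hp, Fgb and Fgg), with a median log2 ratio of 1.01 against -0.19 over all genes measured. The summed level of the acute phase and innate defence genes was 30597 CPM in Luminal Progenitor 1 and 28531 CPM in EMT-like cells. Of 15 luminal progenitor genes 6 were higher (Cd14, Kit, Elf5, Ltf, Wfdc18 and Mfge8) and none lower, with a median of 0.73.

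The genes lowest in the class were genes of Mature Luminal cells. All 12 named genes on this side had their highest level in Mature Luminal cells. Fgb and Fgg, which encode fibrinogen chains, stood at 1.95 and 26.5 CPM in Luminal Progenitor 1, against 1356 and 1735 CPM in Mature Luminal cells. Ly6d, which encodes a small surface protein, stood at 38.6 CPM, against 3079 CPM in Mature Luminal cells. The others were Fxyd2, Fam25c, Cited1, Ffar4, Id3, Col8a1, Glul, Gpx3 and Wfdc2, with log2 ratios against all other classes of -8.87 to -4.47. Of 12 mature luminal genes, 9 were measured and 7 were lower, where 5.1% of all genes tested were lower. Ly6d, Cited1 and Gpx3, named above for their low ratios, were among the 7. So were Prlr and Foxa1, which encode the prolactin receptor and a pioneer factor of hormone-responsive cells. Foxa1 stood at 2.17 CPM in Luminal Progenitor 1 and 396 CPM in Mature Luminal cells.

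Of the other classes, EMT-like cells had the fewest genes apart from Luminal Progenitor 1, with 156 higher and 27 lower of 3612. Of the 4 genes the study names for the EMT-like class, Trim29 and Cldn6 were at 0 in it. The 4 genes summed to 819 CPM in Luminal Progenitor 1 and 365 CPM in EMT-like cells. Sox4 alone gave 789 CPM of the sum in Luminal Progenitor 1, so the sum says little about the others. Trim29 and Cldn6 were highest in Mature Luminal cells, at 111.0 and 110.3 CPM. Keratins were higher in Luminal Progenitor 1, with Krt8 at 2422 CPM against 867 CPM and all 4 luminal keratins called. Immediate early genes, which respond within minutes to growth factors and stress, were higher for 12 of 18 members, with Atf3 at 2330 CPM in Luminal Progenitor 1 and 435 CPM in EMT-like cells. Nfkbia, which encodes the inhibitor that NF-kB induces to limit itself, stood at 1167 CPM against 175 CPM, and was highest in Lumino-Basal cells, at 3839 CPM. EMT-like cells had a median of 4135 UMIs and 2.65% mitochondrial UMIs, and the part of depth and RNA content in these differences was not tested.

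The deposited table divides the class into 4 clusters, and each cluster of the tumor lies wholly in 1 class. Cluster 1 held 1468 cells, cluster 3 held 519, cluster 5 held 111 and cluster 7 held 59, or 68.1%, 24.1%, 5.15% and 2.74% of the class. Their median UMIs were 6789, 3508, 7031 and 1997, and their median mitochondrial shares were 1.36%, 2.64%, 1.79% and 5.52%. Depth and RNA content thus moved with the clusters.

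Cluster 1 was higher than clusters 3 and 5 in NF-kB targets and chemokines, whereas cluster 7 differed less from it. Among 3518 genes tested against the other Luminal Progenitor 1 cells, 63 (1.79%) were higher and 17 (0.483%) lower. Nfkbia stood at 1414 CPM in cluster 1, against 182, 377 and 1081 CPM in clusters 3, 5 and 7. Cxcl1, which encodes a chemokine that draws neutrophils, stood at 212 CPM, against 21.3, 70.7 and 113 CPM. Cluster 1 was higher for 6 of 14 NF-kB response genes, namely Nfkbia, Nfkbiz, Tnfaip3, Zc3h12a, Ier3 and Irf1, with a median log2 ratio of 1.33 against -0.07 over all genes measured. It was also higher for Cxcl1, Cxcl2 and Tnf, 3 of 15 chemokine and cytokine genes measured, and for 6 of 18 immediate early genes. The NF-kB response genes summed to 6829 CPM in cluster 1, against 1598, 3006 and 5953 CPM in clusters 3, 5 and 7. In cluster 7 Tnfaip3 was called higher than in the other Luminal Progenitor 1 cells, and no gene of that list was called lower. The immediate early genes summed to 44578 CPM in cluster 1, against 16475, 41013 and 63962 CPM in clusters 3, 5 and 7. Cxcl2 UMIs were held by few cells: 113 cells of the class had one, and 12 cells held 50%. Other named genes higher in cluster 1 were Adamts1, Hbegf and Car6, and the largest ratio was that of Scgb1b27, which rests on the cell described above. That cell also held 408 of the 1150 Car6 UMIs of cluster 1. Among cells of 3000 to 5000 UMIs, Car6 had 8 UMIs in cluster 3 and 9 in cluster 1. Its log2 ratio of cluster 3 over cluster 1 was 0.32 (-1.25 to 1.87) there and -2.97 over all cells. Lower in cluster 1 were Apod, Saa2, Cldn10, Saa1 and Sparcl1. In cells thinned to 2000 UMIs, Nfkbia was found in 87.5% of cells with a Cxcl1 UMI and in 53.3% of the 1720 cells without one. Within cluster 1 the shares were 89.4% and 64.4%.

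Because these genes were higher together, the promoters of Cxcl1, Cxcl2 and Nfkbia are shown, as examples of those with an NF-kB motif, which is GGG, any 2 bases and then TTTCC on either strand, with the sequence from RefSeq for build GRCm38.p6, from 250 bases before to 50 after the start, with matches in capitals.
Cxcl1 (chr5:90890995-90891294, plus strand): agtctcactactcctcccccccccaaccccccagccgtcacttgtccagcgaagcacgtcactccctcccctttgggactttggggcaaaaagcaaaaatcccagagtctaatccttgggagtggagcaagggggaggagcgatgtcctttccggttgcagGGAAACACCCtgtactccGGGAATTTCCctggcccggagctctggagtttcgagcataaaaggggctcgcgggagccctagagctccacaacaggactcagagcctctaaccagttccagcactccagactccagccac
Cxcl2 (chr5:90903649-90903948, plus strand): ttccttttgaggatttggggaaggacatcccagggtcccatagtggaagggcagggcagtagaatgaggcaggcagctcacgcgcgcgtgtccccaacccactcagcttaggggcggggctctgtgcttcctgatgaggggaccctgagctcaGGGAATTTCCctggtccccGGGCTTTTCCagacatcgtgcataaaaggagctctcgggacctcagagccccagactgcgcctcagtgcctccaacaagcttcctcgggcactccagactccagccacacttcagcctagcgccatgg
Nfkbia (chr12:55492598-55492897, minus strand): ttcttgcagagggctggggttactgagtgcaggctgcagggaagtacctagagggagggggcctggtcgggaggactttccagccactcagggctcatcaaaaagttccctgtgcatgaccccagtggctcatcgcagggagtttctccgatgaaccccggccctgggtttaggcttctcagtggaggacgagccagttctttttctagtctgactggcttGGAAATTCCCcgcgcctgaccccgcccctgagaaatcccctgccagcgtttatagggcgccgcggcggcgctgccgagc
Of the 9 NF-kB and chemokine genes higher in cluster 1, 8 had a promoter in the table and 4 held a match, namely these 3 and Tnfaip3. Of all 32851 promoters 535, or 1.63%, held one. The matches began 89 and 71 bases before the start in Cxcl1, 97 and 78 in Cxcl2 and 29 in Nfkbia. The cyclic AMP response letters TGACGTCA were in no promoter of the 8 genes and in 1.79% of all promoters. The AP-1 letters TGANTCA were in a promoter of Tnfaip3 alone and in 7.81% of all. Irf1 and Tnfaip3 had more than a single promoter, and a gene was counted if any of its promoters held a match. The shares of all are per promoter, so the units differ. The genes were chosen with their values known, and most came from a list of NF-kB response genes. Their share with an NF-kB motif can follow from that choice, so it does not bear on cluster 1. A match is a string of letters and not a measured site.

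Cluster 3 was the counterpart of cluster 1. Among 3520 genes, 22 (0.625%) were higher and 118 (3.35%) lower than in the other Luminal Progenitor 1 cells. Of 18 immediate early genes 14 were lower, with a median log2 ratio of -1.82 against 0.06 over all genes measured. Atf3 stood at 500 CPM in cluster 3, against 2729 CPM in cluster 1, and Maff, a small basic leucine zipper factor, at 32.9 CPM against 505 CPM. The same 6 NF-kB response genes that were higher in cluster 1 were lower here, as were Cxcl1, Cxcl2, Lif and Tnf; each of the 2 clusters is most of the other's comparison group. Named genes lower in cluster 3 also included Hbegf and Dusp5, which encode an EGF receptor ligand and an ERK phosphatase. Higher in cluster 3 were Npy at 1040 CPM, against 378 CPM in cluster 1, Saa1 at 5335 CPM against 2168 CPM, and Spp1, which encodes osteopontin, at 7098 CPM against 3269 CPM. Apod, Hrct1, Fcgbp and Rsrp1 were also higher in cluster 3, with ratios of 2.21-fold to 3.28-fold. Immune cell markers moved with these genes: the summed level of 10 macrophage markers was 68.2 CPM in cluster 3 and 31.6 CPM in cluster 1, and S100a8, a neutrophil marker, stood at 529 CPM in cluster 3 and 258 CPM in cluster 1. S100a9 was at 0 in both clusters, and the part of these markers in the difference was not tested. Within cluster 3, 12 of 519 cells held 50% of the Npy UMIs. Apod also rested on few cells: 36 cells of cluster 3 had a UMI of it, and 4 held 50% of its 256 UMIs.

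Clusters 3 and 1 were also compared among cells of like depth, where 12 of the 23 genes higher over all cells and 95 of the 117 lower were called again. Cells of 3000 to 5000 UMIs numbered 178 in cluster 3 and 237 in cluster 1, with medians of 3856.5 and 4241 UMIs. Between them 27 genes were higher and 159 lower in cluster 3, or 0.755% and 4.45%, against 0.652% and 3.31% over all cells. This range of depth was chosen after the data were seen. Nfkbia had a log2 ratio of -3.37 (-3.67 to -3.09) at like depth and -2.96 over all cells, and Saa1 1.38 (1.31 to 1.45) and 1.30. Npy, Spp1, Hrct1 and Rsrp1 were under 2-fold apart at like depth, so their calls were lost there. The log2 ratio of Npy was 0.97 at like depth and 1.46 over all cells, that of Spp1 0.65 and 1.12, that of Hrct1 0.62 and 1.29, and that of Rsrp1 0.82 and 1.14. S100a8 was higher in cluster 3 at like depth too, at 544 CPM against 212 CPM. The macrophage markers H2-Aa and Cd68 had 14 UMIs each in cluster 3 in this range, against 3 and 5 in cluster 1. The median mitochondrial share was still 2.47% in cluster 3 and 1.35% in cluster 1 in this range.

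Cluster 3 had levels of Nfkbia and Krt8 near those of EMT-like cells, and higher levels of the defence genes Ltf and Slpi. Between cluster 3 and EMT-like cells 119 of 3561 genes were apart (2.3% higher and 1.04% lower), and between cluster 3 and cluster 1 there were 140 of 3530. Nfkbia stood at 182 CPM in cluster 3 and 175 CPM in EMT-like cells, and Krt8 at 914 and 867 CPM. Ltf parted them, at 2414 CPM in cluster 3 and 155 CPM in EMT-like cells, as did Slpi at 3438 and 312 CPM. Lalba went the other way, at 2715 CPM in cluster 3 and 6911 CPM in EMT-like cells.

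Saa1 and Saa2 lie next to each other and are near copies, and they were often found in the same cells. Saa1 spans chr7:46740497-46742980 on the minus strand and Saa2 chr7:46751790-46754313 on the plus strand (GRCm38). The last 300 bases of their longest transcripts were 92.4% identical, so reads of one can be counted for the other and their separate values are uncertain. A Saa2 UMI was found in 48.1% of thinned cells with a Saa1 UMI and in 5.33% of those without. Their promoters, shown because the genes were higher together, were 95.3% identical in RefSeq's GRCm38.p6 table, and a search for the 3 motifs found no match in these windows.
Saa1 (chr7:46742931-46743230, minus strand): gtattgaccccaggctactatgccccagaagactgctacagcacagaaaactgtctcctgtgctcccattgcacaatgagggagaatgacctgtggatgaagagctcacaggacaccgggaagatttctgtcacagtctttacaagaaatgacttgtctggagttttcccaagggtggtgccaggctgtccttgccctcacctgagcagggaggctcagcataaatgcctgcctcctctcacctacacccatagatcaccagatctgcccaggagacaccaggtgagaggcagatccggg
Saa2 (chr7:46751583-46751882, plus strand): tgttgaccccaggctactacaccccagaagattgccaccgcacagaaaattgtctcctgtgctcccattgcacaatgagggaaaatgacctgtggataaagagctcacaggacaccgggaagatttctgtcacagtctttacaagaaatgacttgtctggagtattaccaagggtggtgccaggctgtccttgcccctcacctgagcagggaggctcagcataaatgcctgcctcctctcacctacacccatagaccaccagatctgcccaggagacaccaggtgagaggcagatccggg
The shares for Npy and Saa1 overlapped within counting error: a Saa1 UMI was found in 39.6% of the 356 cells with an Npy UMI (34.5 to 44.9%) and in 37.7% of those without (35.4 to 40.1%). A Lalba UMI was found in 53.7% of cells with Npy and 64.2% of those without.

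Cluster 5, at a depth like that of cluster 1, was lower in some genes of the class and not in others. Among 3626 genes, 103 (2.84%) were higher and 172 (4.74%) lower. Cd14 stood at 382 CPM in cluster 5, against 1359 CPM in the other Luminal Progenitor 1 cells, and Kit at 52.1 CPM against 215 CPM. Ltf stood at 248 CPM against 2490 CPM, and Slpi at 213 CPM against 2281 CPM. In all 7 of 15 luminal progenitor genes were lower (Cd14, Kit, Aldh1a3, Ltf, Wfdc18, Plb1 and Mfge8) and 1, Folr1, was higher, with a median log2 ratio of -1.38 against 0.04 over all genes measured. The basal genes Krt14 and Lgals7 were also lower, as was Wfdc12. Lalba and Saa1 were not, at 4133 and 5120 CPM in cluster 5. The 5 given markers summed to 10460 CPM there, against 8626 CPM over the class and 8071 CPM in cluster 1. Lalba and Saa1 gave most of that sum. After thinning, at least 3 of the 5 were found together in 32.7% of cluster 5 cells. The shares were 45.1%, 58.5% and 48.3% in clusters 1, 3 and 7, the last on 29 cells. Cd14 was found in 38.2% of thinned cluster 5 and 73.2% of thinned cluster 1 cells, and Npy in 4.55% and 17.3%. Lalba (70.9% and 63.8%), Saa1 (45.5% and 34.2%) and Ptx3 (48.2% and 47.1%) were not found in fewer cells. Cldn10, which encodes a tight junction claudin, stood at 477 CPM in cluster 5 and 50.1 CPM in the other Luminal Progenitor 1 cells. A Cldn10 UMI was found in 82.0% of cluster 5 cells without thinning. S100b, Tesc, A2m, Scrg1 and Hs3st1 were higher by 5.11-fold to 11.8-fold. The last named genes on this side, Apod and Sparc, rested on few cells: 2 cells of cluster 5 held 50% of its 340 Apod UMIs, and 1 cell held 84 of its 89 Sparc UMIs.

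Cluster 7 stood apart in RNA content. Malat1 and Neat1, RNAs kept in the nucleus, stood at 14812 and 5826 CPM in cluster 7, against 5516 and 2330 CPM in cluster 1, and ribosomal protein genes gave 1.29% of its UMIs against 5.21% in cluster 1. The highest mitochondrial share of one of its cells was 23.4%. Among 4299 genes 538 (12.5%) were higher and 616 (14.3%) lower than in the other Luminal Progenitor 1 cells, on 133204 UMIs in all, and scaling by TMM turned this to 145 higher and 1078 lower. Named genes higher in cluster 7 were Atp13a1, Thbs1, Foxq1, Cdc14a, Pcf11, Fcho2, Chuk and Srf, on 14 to 74 UMIs. Thbs1, which encodes thrombospondin 1, had the most of these, at 556 CPM against 125 CPM. Named genes lower were Scgb1b27, Dpy30, Cmc1, Wfdc17 and Smim11, each with 1 or 2 UMIs in cluster 7; for Dpy30 the log2 ratio was -3.46 with an interval of -6.51 to -1.61. Ltf stood at 6336 CPM in cluster 7, the highest of the clusters, and Cd14 at 1727 CPM. The part of the low RNA content in these values was not tested.

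**Figure D3:**
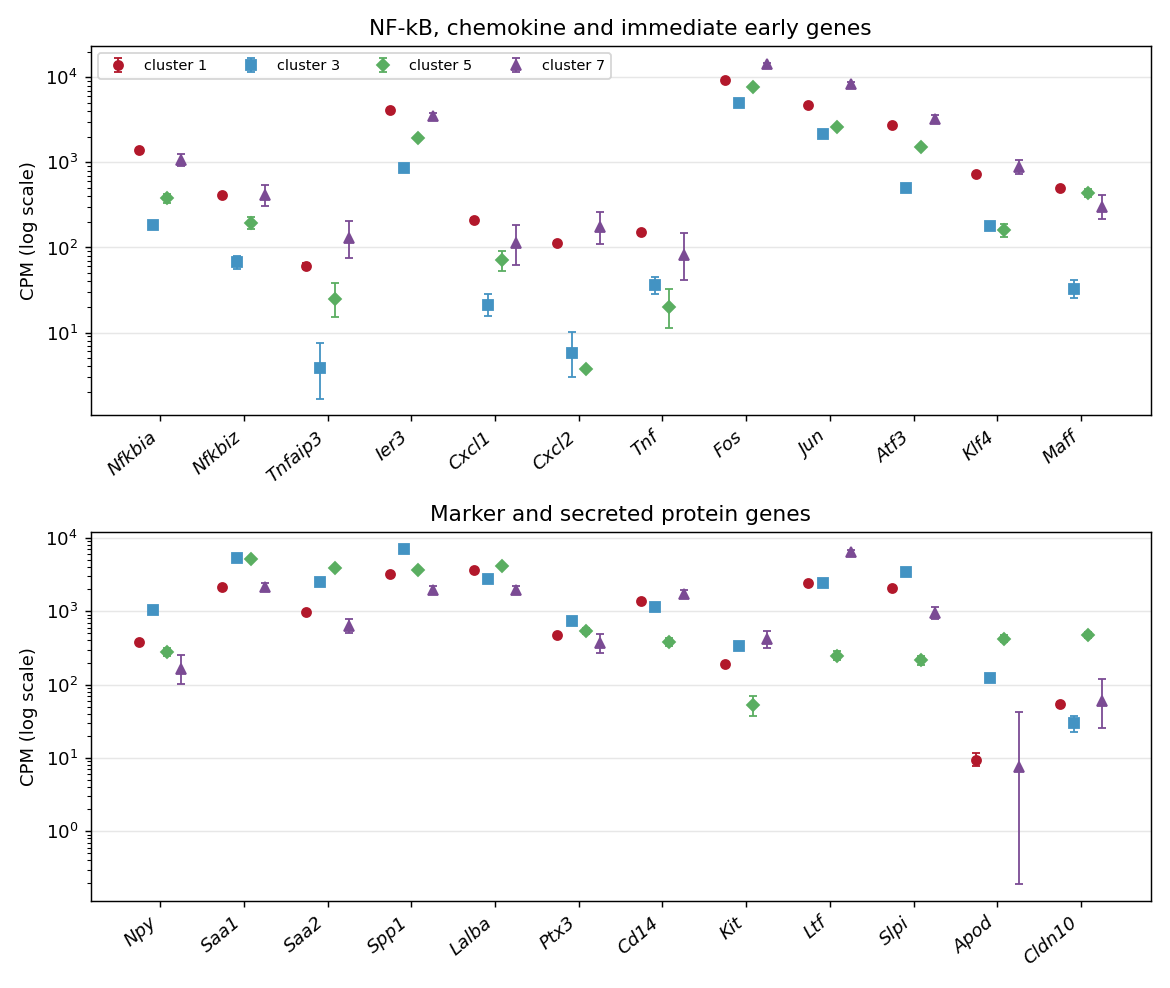
Level of 24 genes in the 4 deposited clusters of Luminal Progenitor 1 cells of the PKA tumor, as CPM on a log axis with 95% Poisson intervals (counting error only). Cluster 3 has the lowest level of Nfkbia at 182 CPM and the highest of Npy at 1040 CPM. Cxcl2 had 0 UMIs in cluster 5, and its point there is the level of 3 UMIs.

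Set against Luminal Progenitor 1 cells of the WT tumor, those of the PKA tumor were higher in Saa1, Saa2, Npy, Slpi, Wfdc12 and Wfdc17 and lower in Cst3, Csn1s1 and Pgf. Among 3665 genes, 96 (2.62%) were higher and 69 (1.88%) lower. Saa2 stood at 1381 CPM in PKA tumor, against 119 CPM in WT tumor, and Saa1 at 2813 and 423 CPM. Npy stood at 469 CPM in PKA tumor, against 69.0 CPM in WT tumor, a log2 ratio of 2.77 (2.66 to 2.88). Of the other given markers, Lalba was higher, at 3526 CPM in PKA tumor, against 994 CPM in WT tumor, whereas Ptx3 (516 and 375 CPM) and Cd14 (1302 and 1017 CPM) were less than 2-fold apart. Slpi, Wfdc12 and Wfdc17, of the WAP-type inhibitor family, were higher by 3.63-fold to 5.14-fold. The other named genes on this side were Fxyd6, Dmkn, Crispld2, Slc5a8, Pam and Tmsb10, at 3.68-fold to 5.79-fold. Pam encodes the enzyme that amidates neuropeptides, neuropeptide Y among them, and stood at 318 CPM in PKA tumor, against 78.1 CPM in WT tumor. S100a8 stood at 324 CPM in PKA tumor, against 16.0 CPM in WT tumor, with S100a9 at 0.145 CPM in PKA tumor and no UMI in WT tumor.

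Without cluster 1, the counts against WT tumor were 135 higher and 139 lower, in place of 96 and 69. Cst3, which encodes cystatin C, a secreted protease inhibitor, was among the genes lower in PKA tumor, at 364 CPM, against 1464 CPM in WT tumor. Scgb2b27 stood at 333 CPM in PKA tumor, against 1529 CPM in WT tumor, with 50% of its UMIs in 6 and 99 cells. Csn1s1, a casein, stood at 27.3 CPM in PKA tumor, against 159 CPM in WT tumor, and Pgf, a placental growth factor of the VEGF family, at 33.1 and 184 CPM. Hilpda and Cdkn1a, which encode a lipid droplet protein induced by low oxygen and a cell cycle inhibitor under p53, were lower by 4.22-fold and 3.21-fold. Together with Cst3, the other named genes were Cpm, Hp, Pla2g4a, Emid1, Ly6d and Gng11, at 3.24-fold to 4.87-fold, and 2 cells held 50% of the Hp UMIs in PKA tumor. No call was made among the 19 measured PKA pathway genes. Prkaca, the gene of a catalytic subunit of PKA, stood at 77.9 CPM in PKA tumor, against 79.7 CPM in WT tumor. Prkar1a codes for a regulatory subunit and had 274 CPM in PKA tumor, against 429 CPM in WT tumor. Between the clusters of the class no PKA pathway gene was called in clusters 1, 3 and 5. Pde4d alone was called, higher, in cluster 7, where 12.5% of all genes tested were higher and 14.3% lower. Against WT tumor, 1 of 17 CREB target genes, Npy, was higher in PKA tumor and 2, Nr4a2 and Rgs2, were lower. Over all genes tested against WT tumor, 2.62% were higher and 1.88% lower.

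Each cluster was set against the same WT tumor cells in turn. Genes higher and lower were 2.71% and 1.94% for cluster 1, 3.98% and 5.41% for cluster 3, 5.41% and 6.46% for cluster 5, and 16.2% and 18.0% for cluster 7. By summed UMIs Npy was higher in all 4 clusters, at 378, 1040, 278.9 and 165 CPM in clusters 1, 3, 5 and 7, against 69.0 CPM in WT tumor. In clusters 5 and 7 this rested on few cells. An Npy UMI was found in 8 of 111 cells of cluster 5 (7.21%) and 9 of 59 of cluster 7, against 5.51% of WT tumor cells. The median depths were 7031, 1997 and 4143 UMIs in the same order. Saa1 was also higher in all 4 clusters, at 2168, 5335, 5120 and 2132 CPM against 423 CPM, and Pgf was lower in all 4. Slpi was lower in cluster 5 than in WT tumor, at 213 CPM against 596 CPM.

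**Figure D4:**
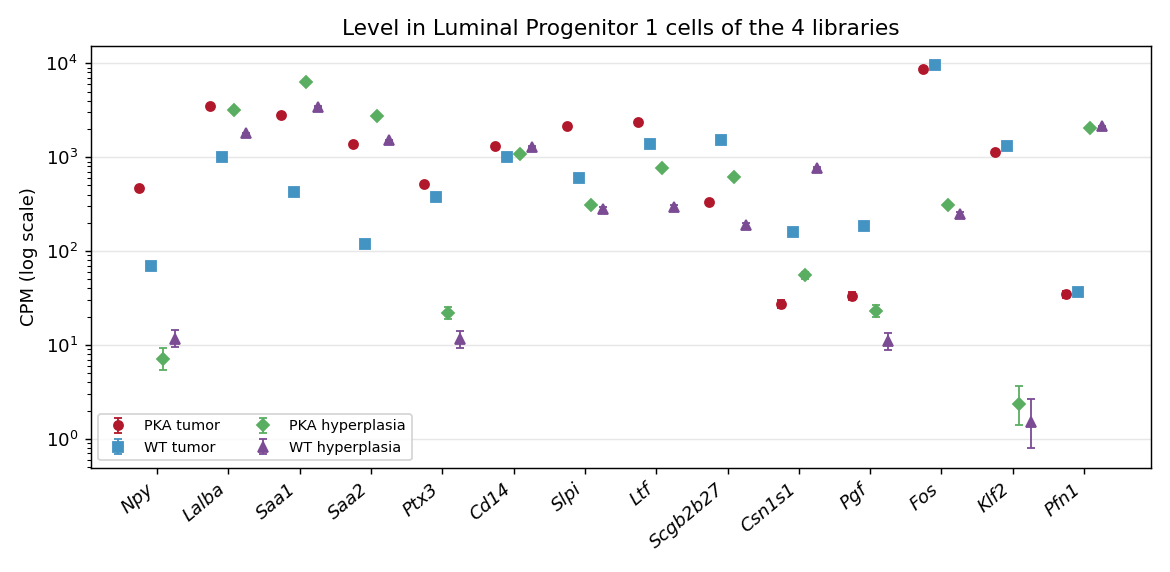
Level of 14 genes in Luminal Progenitor 1 cells of the 4 libraries, as CPM on a log axis with 95% Poisson intervals (counting error only) that leave out differences between animals. Saa2 is lowest in WT tumor at 119 CPM, and Pfn1 stands at 34.6 and 36.7 CPM in the tumors but above 2000 CPM in both hyperplasia libraries.

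Luminal Progenitor 1 cells of the PKA tumor differed from those of PKA hyperplasia in many more genes. Among 3759 genes 426 (11.3%) were higher and 313 (8.33%) lower, and with TMM scaling 290 were higher and 569 lower, so the balance of directions depends on the scaling. Npy stood at 469 CPM in PKA tumor and 7.08 CPM in PKA hyperplasia, and Ptx3 at 516 and 22.1 CPM. Saa1 went the other way, at 2813 CPM in PKA tumor and 6344 CPM in PKA hyperplasia, while Lalba (3526 and 3165 CPM) and Cd14 (1302 and 1093 CPM) were less than 2-fold apart. In WT hyperplasia Saa1 stood at 3461 CPM and Npy at 11.7 CPM, so Luminal Progenitor 1 cells of the WT tumor had the lowest Saa1 of the 4 libraries. Between PKA and WT hyperplasia 0.571% of 3326 genes were higher and 1.02% lower.

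Of 18 immediate early genes 16 were higher in PKA tumor than in PKA hyperplasia, with a median log2 ratio of 4.24 against 0.36 over all genes measured. Fos stood at 8613 CPM in PKA tumor and 309 CPM in PKA hyperplasia, and Klf2, a Kruppel-like factor, at 1142 and 2.36 CPM. The WT tumor had 9521 CPM of Fos and 1324 CPM of Klf2, and WT hyperplasia had 248 and 1.53 CPM. C2cd4b had 4440 UMIs in PKA tumor and 3 in PKA hyperplasia, a log2 ratio of 9.75 (8.20 to 12.03). Fosb, Cited4, Pnrc1, Hes1, Klf4, Sox4, Jun and Atf3 were the other named genes higher in PKA tumor. Csf3, a granulocyte growth factor, stood at 23.1 CPM in PKA tumor and 1218 CPM in PKA hyperplasia, and Cxcl1 at 174 and 1059 CPM. The other named genes lower in PKA tumor were Pfn1, Il24, Amtn, Ly6d, Timp1, Fhl2, Muc4, Csn1s2a, Tubb6, Fam107b and Angptl4. Pfn1, the gene of profilin, a protein that binds actin in nearly all cells, stood at 34.6 CPM in PKA tumor, 36.7 CPM in WT tumor, 2063 CPM in PKA hyperplasia and 2132 CPM in WT hyperplasia. Stage, digestion and any difference in how the 2 stages were counted cannot be told apart in these libraries.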

How the data were processed

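Single cells were captured with the Chromium 3′ v2 kit, aiming at 5000 cells and 50000 reads per cell, per the labels. Per the submitters' processing notes, the tools included Cell Ranger, featureCounts of Subread 1.6.0 and STAR 2.5.3a, with genome builds GRCm38 and mm10, and no label or header says which of them made the tables. The authors deposited UMI counts per gene and barcode, and a cell table with class, UMI and gene counts, the mitochondrial fraction and a cluster number, which was handled as a score without order. The PKA tumor had 2934 barcodes, of which 2638 were annotated, and its UMI totals matched the cell table in all 2638.

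UMIs were summed per class or cluster and divided by their total (CPM). Ratios have exact conditional binomial intervals, CPM exact Poisson and shares Clopper-Pearson intervals (95%), all for counting error only. Calls use 2-fold of (CPM + 10) at 50 CPM on the higher side. Named genes reach 100 CPM on the higher side: the 12 highest and 12 lowest ratios of (CPM + 10) per comparison, and 8 and 5 per cluster, leaving out mitochondrial, ribosomal protein, haemoglobin, predicted, Xist, Tsix, Y-linked and non-epithelial marker genes, plus the 5 given markers and members of lists; 1 gene that the rule names is not reported here. List members were measured at 10 UMIs over both sides, and list medians have 0.5 UMIs added. Members and lists were chosen with earlier results of these data known. Cells were thinned to 2000 UMIs (seed 1). Scrublet through scanpy 1.11.5 called 1 of 2638 cells a doublet, too few for the caller to be relied on, and no cell was removed; 12 cells of the class had more than 3 times its median UMIs. Gene positions are from the GENCODE annotation of GRCm38. The calculations used Python 3.11.15, NumPy 2.4.6, SciPy 1.17.1 and pandas 2.3.3, with edgeR 4.0.16 for TMM factors only, and were tested on simulated data. Alternatives were other scalings, filters, added CPM, thinning depths and left-out clusters.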

Additional observations from a re-analysis of the deposited data

Results flagged for a closer look

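In Luminal Progenitor 1 cells, 6 of the named genes were lower in PKA than in WT at the tumor stage and higher in PKA than in WT at the hyperplasia stage, by at least 2-fold each. With 1 library per group the difference between stages was not tested. These folds have no added CPM and no minimum level, and the same count over all genes was not made. Scgb2b27, Pgf and Cpm were named for being among the lowest in PKA tumor against WT tumor, so their tumor direction follows from that choice. Scgb2b27 alone reached 50 CPM on the higher side at both stages. Scgb2b27 had a log2 ratio of PKA over WT of -2.20 in tumors and 1.68 in hyperplasia, and 6 cells held 50% of its UMIs in PKA tumor. Pgf had -2.47 in tumors and 1.08 in hyperplasia. Cpm, which encodes carboxypeptidase M, had -2.28 in tumors and 1.78 in hyperplasia, at 25.01 and 122 CPM in PKA and WT tumors and 24.8 and 7.26 CPM in PKA and WT hyperplasia. Cited1 (-1.86 and 1.70), Gpx3 (-2.56 and 1.23) and Fgb (-1.53 in tumors) are genes of Mature Luminal cells and stood at 1.73, 1.95 and 1.95 CPM in Luminal Progenitor 1 of PKA tumor. Fgb had 32 UMIs in PKA hyperplasia and 0 in WT hyperplasia, so PKA was at least 10.4-fold higher there, or 3.38 on the log2 scale, with 3 UMIs taken as the floor of the library.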

How the results depend on the processing

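The share of Luminal Progenitor 1 cells stayed between 81.6% and 81.8% under the filters tried. Without a minimum CPM, 402 genes were lower than in the other classes, 30 lower in cluster 1, 35 higher in cluster 3, 167 higher and 287 lower in cluster 5, 1018 and 1277 in cluster 7, 114 lower than in WT tumor and 779 higher than in PKA hyperplasia. With 50 CPM added, the counts higher and lower were 37 and 112 against the other classes, 33 and 6 in cluster 1, 5 and 77 in cluster 3, 57 and 74 in cluster 5, 91 and 306 in cluster 7, 49 and 30 against WT tumor, and 215 and 157 against PKA hyperplasia; these settings admit more or fewer low genes by construction. Thinned to 2000 UMIs, cluster 5 had 156 genes higher and cluster 7 had 934. TMM scaling gave 134 higher and 163 lower against the other classes (93 and 195 as reported), 145 and 1078 in cluster 7, and 290 and 569 against PKA hyperplasia. It moved the median log2 ratio of the genes tested to 0.06 against the other classes (-0.12 as reported), to -0.32 in cluster 7 (0.21) and to -0.34 against PKA hyperplasia (-0.01). Without cluster 1, 135 genes were higher and 139 lower than in WT tumor, and 2 log2 ratios against the other classes changed sign, that of Scgb1b27 to -0.011 and that of Cxcl1 to -0.20; the cause was not tested. Of 1431 values of named genes under the alternatives, 1429 kept their direction, but 384 moved by more than counting error. These genes were picked for extreme ratios, so a change of direction was unlikely from the start. The setting without a minimum CPM leaves their ratios unchanged by construction. Thinned to 1000 UMIs, the shares of cells were 13.2% for Npy, 53.1% for Lalba, 30.8% for Saa1, 34.0% for Ptx3 and 54.1% for Cd14. Thinned to 4000 UMIs they were 22.6%, 70.2%, 43.7%, 65.9% and 82.1% in the same order. No paired analysis was possible because each group is 1 library, and for the same reason no replicate could be left out.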

Other observations

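Of 17 lineage transcription factors measured, Elf5, Ehf and Cebpb were higher in Luminal Progenitor 1 than in the other classes, and Elf3, Foxa1 and Runx1 were lower, where 2.43% and 5.1% of all genes tested were higher and lower. Among luminal keratins the class was intermediate. Krt19 stood at 422 CPM in Luminal Progenitor 1, against 204 CPM in EMT-like, 7087 CPM in Mature Luminal and 859 CPM in Lumino-Basal cells. Of 12 measured heat shock genes, Dnajb1 and Hspb1 were higher in cluster 1 and Dnajb1, Hspb1 and Hmox1 were lower in cluster 3, where 1.79% of all genes were higher in cluster 1 and 3.35% lower in cluster 3. Over all cells, the log2 ratio of cluster 3 over cluster 1 was 0.74 for Hspa1a, 0.67 for Hspa1b and -0.21 for Hsp90ab1. Among cells of like depth it was -0.23 (-0.62 to 0.15), 0.58 (-0.53 to 1.70) and 0.032 (-0.079 to 0.143) in the same order. Each of these intervals spans both directions, so Hspa1a, Hspa1b and Hsp90ab1 were not apart beyond counting error at like depth. The called genes Dnajb1, Hspb1 and Hmox1 were still lower in cluster 3 there. Their log2 ratios were -2.99 (-3.41 to -2.59), -1.55 (-1.70 to -1.40) and -1.51 (-2.26 to -0.82). Of 12 measured p53 target genes, Cdkn1a and Trp53inp1 were lower in PKA tumor than in WT tumor and none higher, where 1.88% of all genes were lower. Of 18 measured interferon response genes, Ifi27l2a alone was called between those tumors, higher in PKA tumor, where 2.62% of all genes were higher.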
